A study of Mus musculus with 5 samples.

Results

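Myc and 7 genes commonly counted among its growth targets are described here: Npm1, Ncl, Fbl, Ran, Nme1, Odc1 and Eif4a1. These are 8 of the 28692 genes in the count files, and each was taken by its symbol. Myc encodes a transcription factor that pairs with the protein Max and binds short DNA elements called E-boxes. Its targets in growing cells include genes that build ribosomes, make nucleotides and polyamines, and start translation. Proteins of the Mxd family, with Mxi1 and Mnt, pair with Max as well and act against Myc at the same elements.

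The study put 1000 pre-B acute lymphoblastic leukemia cells carrying BCR-ABL1 into each of 5 C57BL/6J mice through the tail vein. Marrow of 1 mouse each was taken at day 0, right after the transfer, and at days 3, 6, 9 and 12. Flushed marrow and enzyme-digested bone of femur and tibia were pooled, and 1 10x Genomics 3' v2 library was made per mouse. No deposited label tells transplanted from host cells, and transplanted cells were not identified here.

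The count files held 35329966 unique molecular identifiers (UMIs, 1 per captured RNA molecule) at day 0, 38827241 at day 3, 40601920 at day 6, 43554233 at day 9 and 33425695 at day 12. Barcodes with at least 500 UMIs were taken as cells. They numbered 6680, 5474, 6506, 7604 and 5871 in the order of the days, 32135 in all. The median cell held 2874, 3786, 3382, 3254 and 3408 UMIs. Cells were sorted into 38 clusters without use of the 8 genes and were named by marker lists. This gave 25 classes, of which 18 carry a cell type name ending in "-like" and 7 are called by their leading genes.

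Cell classes differ widely in depth, which matters for a rare transcript such as Myc. The median was 10333 UMIs in the 341 stem and multipotent progenitor-like cells and 2624 UMIs in the 11825 neutrophil-like cells. Levels are therefore given as UMIs of a gene per 10000 UMIs of a class in 1 library, for classes with at least 20 cells there. Shares of cells with a UMI are given after each cell was thinned at random to 500 UMIs. Barcodes with 10 to 100 UMIs gave the level of each gene in RNA outside cells, called free RNA. With 1 mouse per day there are no replicates within a day, and 95% intervals (exact Poisson for levels, exact binomial for shares) cover counting error only. A mean ± SD below is taken over libraries of different days.

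Myc (ENSMUSG00000022346, GRCm38 chr15:61985391-61990374, plus strand) was a rare transcript. It had 1411 UMIs in all cells, a level of 0.0899, and ranked 6476 of the 28692 genes. At full depth, 935 cells (2.91%) held at least 1 Myc UMI. The level in free RNA was 0.131, 0.151, 0.0912, 0.144 and 0.0812 from day 0 to day 12. Of 99 pairs of a class and a library, 14 had a Myc interval above that library's free RNA and 25 had one below it.

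At full depth, stem and multipotent progenitor-like cells had the highest Myc level of the classes seen in all 5 libraries. It was 0.569, 0.835, 0.683, 0.733 and 0.656 in the order of the days, a mean of 0.695 ± 0.0983 (SD, n = 5 libraries). All 5 values lay above free RNA at full depth, 4 of 5 with cells thinned to 1000 UMIs (30 UMIs of Myc left) and 1 of 5 with cells thinned to 500 (10 left). Summed over the libraries the level was 0.723 (95% interval 0.640 to 0.815, 272 UMIs). After thinning, 10 of 341 of these cells (2.93%, 1.42 to 5.33) held a Myc UMI, against 6 of 11825 neutrophil-like cells (0.0507%), with median depths of 10333 and 2624 UMIs before thinning. The interval of the first share overlapped those of other classes, as given below.

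Granulocyte-monocyte progenitor-like (GMP-like) cells came in 2 groups that parted on Myc. The group led by the myeloperoxidase gene Mpo, with 561 cells, had Myc levels of 0.229, 0.395, 0.443, 0.409 and 0.315, a mean of 0.358 ± 0.0862 (SD, n = 5). The group led by Fcnb had 345 cells and 0.0397, 0.0202, 0.0152, 0.0238 and 0.0336, from 13 UMIs. The Mpo-led group was above free RNA in 4 of 5 libraries at full depth, in 1 of 5 with cells thinned to 1000 UMIs and in 0 of 5 with cells thinned to 500 (9 UMIs of Myc left). The ranges did not overlap, so Myc was lower in the Fcnb-led than in the Mpo-led group in each library. The split of the GMP-like cells was made after the clusters had been seen.

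Along the neutrophil series Myc stayed below free RNA in all 5 libraries. Cycling neutrophil precursor-like cells had 0.0189, 0.0172, 0.0147, 0.0152 and 0.0189, and later precursors had 0.00568, 0.00968, 0.0183, 0.0191 and 0.0120. Neutrophil-like cells had 0.00439, 0.00884, 0.00995, 0.0122 and 0.00443, from 29 UMIs. The Fcnb-led group and the cycling precursors carried as much of the cycling gene list as the Mpo-led group or more. They had 22.1 to 27.0 and 22.3 to 27.3 per 10000 UMIs, against 16.2 to 19.2, and less Myc in each library. Whether cell division bears on the Myc level was not tested.

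Among B-lineage cells, Myc was found mainly in 2 unnamed sets of deep cells. Cycling cells with the pre-B genes Igll1 and Vpreb1 had Myc levels of 0.627, 0.246, 0.328 and 0.336 at days 0, 3, 6 and 9, a mean of 0.384 ± 0.167 (SD, n = 4). The day 0 value reached into the range of the stem and multipotent progenitor-like cells. A set led by Myl10 and Rnase12, with 125 of its 127 cells (98.4%) from day 3, had a Myc level of 0.374 there. At full depth the first set was above free RNA in 2 of 4 libraries and the second in its 1 library, and with cells thinned to 500 UMIs neither was.

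The named B-lineage stages had little Myc. Pro-B-like cells had 0.0713, 0.121, 0.256 and 0 at days 0, 3, 6 and 9, from 8 UMIs in all. Large cycling pre-B-like cells had 0.0943, 0, 0.0464 and 0.0383 (7 UMIs), and small pre-B-like cells had 0, 0, 0.0531 and 0.0422 (3 UMIs). These counts are too few to order the 3 stages. Mature B-like cells had 0.101, 0.0854, 0.151, 0.111 and 0.0474, a mean of 0.0993 ± 0.0378 (SD, n = 5), near the level of free RNA.

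Mean Myc levels of T-like and NK-like cells lay between those of Mpo-led GMP-like and mature B-like cells, but at day 0 both were above the Mpo-led cells. Most of these values could not be told from free RNA, with T-like cells above it in 1 of 5 libraries (2 of 5 with cells thinned to 500 UMIs) and NK-like cells in 0 of 5. T-like cells had 0.416, 0.278, 0.218, 0.224 and 0.207, a mean of 0.269 ± 0.0871 (SD, n = 5), and 31 of 1703 (1.82%) held a UMI after thinning. NK-like cells had 0.349, 0.238, 0.182, 0.218 and 0.257, a mean of 0.249 ± 0.0628. These 2 classes did not differ beyond that spread, and T-like cells were higher in 4 of 5 libraries. The order by mean, among the named classes seen in all 5 libraries with these means given, was stem and multipotent progenitor-like, Mpo-led GMP-like, T-like, NK-like and mature B-like, and Mpo-led GMP-like and T-like cells differed by about 1 SD. At a matched depth of 500 UMIs these 2 could not be ordered, with a Myc UMI in 1.60% of Mpo-led cells (95% interval 0.736 to 3.02, 9 cells) and 1.82% of T-like cells (1.24 to 2.57, 31 cells). The share of stem and multipotent progenitor-like cells at that depth, 2.93% (1.42 to 5.33, 10 cells), overlapped both, so their first place was not settled there.

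**Figure D1:**
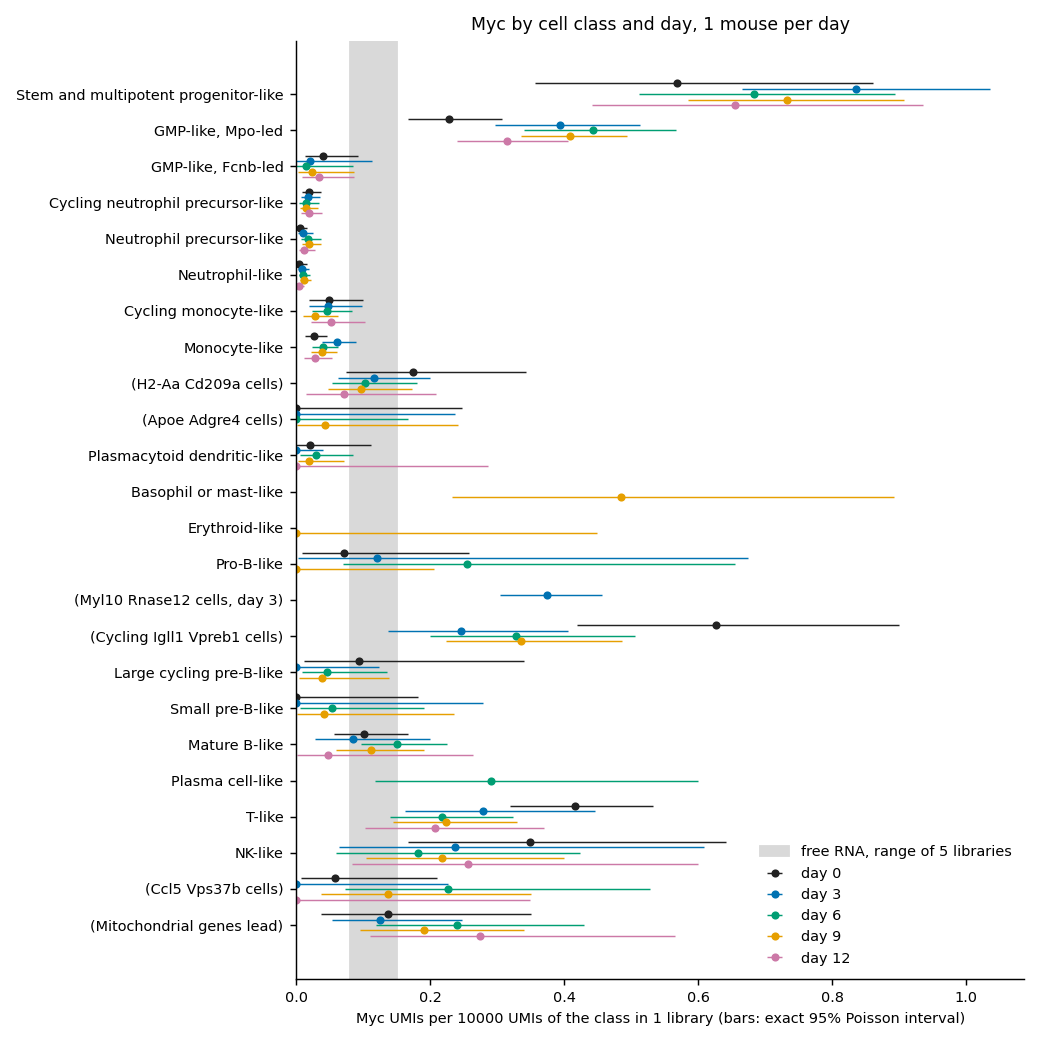
Myc UMIs per 10000 UMIs in each cell class, with 1 point per day (1 mouse each) and exact Poisson 95% intervals. The grey band is the range of free RNA in the 5 libraries. Classes with fewer than 20 cells in a library have no point for that day. Names in brackets are sets called by their leading genes.

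Of the targets, 3 encode nucleolar proteins of ribosome assembly. Npm1 (nucleophosmin, ENSMUSG00000057113, chr11:33152287-33163206, minus strand) had rank 222 among all genes. Its level was 21.02, 15.7, 16.1, 15.5 and 17.8 in stem and multipotent progenitor-like cells (17.2 ± 2.30, SD, n = 5) and 16.03, 14.1, 12.0, 12.6 and 14.5 in Mpo-led GMP-like cells (13.8 ± 1.61). It fell to 1.80, 2.06, 2.25, 2.25 and 1.67 in the Fcnb-led group and to 0.433, 0.601, 0.579, 0.596 and 0.350 in neutrophil-like cells. Thinned to 500 UMIs, 56.9% of stem and multipotent progenitor-like cells (51.4 to 62.2) held an Npm1 UMI, against 2.72% of neutrophil-like cells (2.44 to 3.03), with median depths of 10333 and 2624 UMIs before thinning.

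In the B lineage Npm1 was highest in the cycling Igll1 Vpreb1 cells, at 36.4, 21.8, 19.95 and 17.7 on days 0, 3, 6 and 9. It was 13.2, 9.44, 10.5 and 11.6 in pro-B-like cells and 9.24, 9.18, 7.85 and 10.3 in large cycling pre-B-like cells. Small pre-B-like cells had 8.78, 5.53, 6.77 and 6.41, and mature B-like cells had 5.80, 6.30, 5.58, 5.91 and 4.55 over the 5 days. Npm1 thus stepped down from early to late B-lineage stages, with neighbouring stages overlapping.

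Ncl (nucleolin, ENSMUSG00000026234, chr1:86344719-86359400, minus strand) binds ribosomal RNA precursors. Its level was 7.55, 6.45, 6.99, 6.12 and 8.41 in stem and multipotent progenitor-like cells and 6.27, 5.57, 5.66, 5.42 and 7.71 in Mpo-led GMP-like cells. It was higher in the stem and multipotent progenitor-like cells in each library, with means of 7.10 ± 0.912 and 6.12 ± 0.943 (SD, n = 5 each). Neutrophil-like cells had 0.501, 0.498, 0.469, 0.462 and 0.386.

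The highest Ncl levels were in the 2 unnamed B-lineage sets, with 13.2 in the Myl10 Rnase12 cells and 15.9, 11.8, 12.0 and 9.98 in the cycling Igll1 Vpreb1 cells. Large cycling pre-B-like cells had 5.09, 5.94, 4.92 and 4.28 at days 0, 3, 6 and 9. Small pre-B-like cells had 3.75, 2.95, 3.10 and 2.66 on those days. Ncl was lower in the small than in the large cells in each of the 4 libraries.

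Fbl (fibrillarin, ENSMUSG00000046865, chr7:28169710-28179269, plus strand) methylates ribosomal RNA. Its level was 2.28, 2.55, 2.58, 2.66 and 2.80 in stem and multipotent progenitor-like cells and 2.66, 2.94, 2.48, 2.50 and 3.19 in Mpo-led GMP-like cells. These 2 classes had no common order over the libraries, with the Mpo-led cells higher in 3 of 5 (2.57 ± 0.192 and 2.76 ± 0.306, SD, n = 5 each). Neutrophil-like cells had 0.0944, 0.127, 0.144, 0.141 and 0.114. Large cycling pre-B-like cells had 0.802, 1.37, 0.975 and 1.55 and small ones 0.641, 0.984, 0.929 and 0.844, so the ranges overlapped while the large cells were higher in each library. In 0 of the 4 libraries did the interval of either lie above free RNA (1.24 to 1.496).

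Ran (ENSMUSG00000029430, chr5:129020069-129024323, plus strand) encodes the GTPase that drives transport through the nuclear pore and helps to build the mitotic spindle. The start regions of Ran, Eif4a1 and Nme1 are shown because each holds the E-box CACGTG, which reads the same on both strands. The sequences are from RefSeq promoter windows on build GRCm38.p6, from 250 bases before to 50 bases after a start site, and capitals mark the E-box. Of all 32851 such windows, 2349 (7.15%) hold it. The stretches lie at chr5:129020026-129020055 (plus strand) for Ran, chr11:69672595-69672624 (minus) for Eif4a1, and chr11:93968273-93968302 and chr11:93968037-93968066 (minus) for 2 start sites of Nme1. The first Nme1 stretch shares 21 bases with annotated exons.
Ran: gctcggccggccCACGTGacccgccgcccc
Eif4a1: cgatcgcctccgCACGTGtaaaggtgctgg
Nme1, first start site: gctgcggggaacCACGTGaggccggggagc
Nme1, second start site: agcttgatacgcCACGTGggctcgcctttg
The windows of Ncl and Odc1 hold no CACGTG, and the files at hold give no window for Myc, Npm1 and Fbl. An E-box or its absence does not show whether Myc acts on the gene in these cells.

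Ran was high in several classes of dividing cells, but not in all of them. Its level was 11.7, 11.9, 10.3 and 10.9 in large cycling pre-B-like cells at days 0, 3, 6 and 9 (11.2 ± 0.748, SD, n = 4) and 2.42, 2.04, 2.20 and 2.74 in small pre-B-like cells (2.35 ± 0.302). Stem and multipotent progenitor-like cells had 8.69, 8.72, 6.90, 8.82 and 8.57, and Mpo-led GMP-like cells had 10.3, 9.65, 9.76, 9.11 and 10.96. Cycling monocyte-like cells, where Myc was 0.0289 to 0.0524, still had Ran at 8.11, 7.63, 8.44, 8.18 and 8.22. Cycling neutrophil precursor-like cells and Fcnb-led GMP-like cells, which also carry many cycling transcripts, had only 3.28 to 4.20 and 3.24 to 4.62. Neutrophil-like cells had 0.503, 0.803, 0.721, 0.723 and 0.506.

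Nme1 (ENSMUSG00000037601, chr11:93956979-93968521, minus strand) encodes a nucleoside diphosphate kinase. It lies next to its close relative Nme2 on the same strand, and how reads that match both were counted was not tested. The same holds for reads of Npm1, Ran and Eif4a1 that match their processed pseudogenes. Its level was 8.71, 8.05, 8.15 and 6.96 in the cycling Igll1 Vpreb1 cells at days 0, 3, 6 and 9. Mpo-led GMP-like cells, at 4.85, 4.29, 4.35, 4.45 and 6.00, were above stem and multipotent progenitor-like cells, at 3.31, 3.34, 2.82, 3.15 and 3.74, in each library. Neutrophil-like cells had 0.163, 0.178, 0.237, 0.228 and 0.1496.

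Odc1 (ornithine decarboxylase, ENSMUSG00000011179, chr12:17544794-17551505, plus strand) makes the first polyamine and departed most from the other targets. Its highest level in a multi-library set was in cells led by Ccl5 and Vps37b, with 4.53, 2.52, 4.08, 4.14 and 3.02, where Myc was 0.0584, 0, 0.227, 0.137 and 0. Stem and multipotent progenitor-like cells had 1.34, 1.19, 1.16, 1.23 and 0.765, above the 0.729, 0.610, 0.746, 0.761 and 0.625 of Mpo-led GMP-like cells in each library. Neutrophil-like cells had 0.156, 0.146, 0.185, 0.145 and 0.149. Odc1 in free RNA was 0.563 to 0.726, so Mpo-led GMP-like cells were near that level.

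Eif4a1 (ENSMUSG00000059796, chr11:69666936-69672423, minus strand) encodes the RNA helicase that opens messenger RNA for the ribosome. Mpo-led GMP-like cells had 8.92, 7.61, 6.48, 6.12 and 8.56 (7.54 ± 1.23, SD, n = 5), and stem and multipotent progenitor-like cells had 6.93, 5.72, 5.68, 5.28 and 6.38 (6.00 ± 0.653). It was thus higher in the GMP-like cells in each library. Neutrophil-like cells had 0.942, 0.866, 0.830, 0.781 and 0.717.

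Summed, the 7 targets were high in both early progenitor classes and low in neutrophil-like cells. The sum was 51.1, 43.7, 42.2, 42.8 and 48.5 in stem and multipotent progenitor-like cells and 49.7, 44.7, 41.4, 41.0 and 51.5 in Mpo-led GMP-like cells, with the first class higher in 3 of 5 libraries. It was 10.4, 12.3, 13.5, 13.4 and 12.1 in Fcnb-led GMP-like cells and 2.79, 3.22, 3.16, 3.08 and 2.37 in neutrophil-like cells. Large cycling pre-B-like cells, with 35.4, 35.6, 31.1 and 34.6, kept a high sum with almost no Myc UMIs, against 20.2, 16.1, 17.3 and 16.5 in small pre-B-like cells. In T-like cells, with more Myc than either pre-B stage, the sum was 20.2, 20.5, 19.7, 19.1 and 20.1. Over all libraries Ran alone made up 32.5% of the sum in large cycling pre-B-like cells, 13.2% in small pre-B-like cells and 14.0% in T-like cells.

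**Figure D2:**
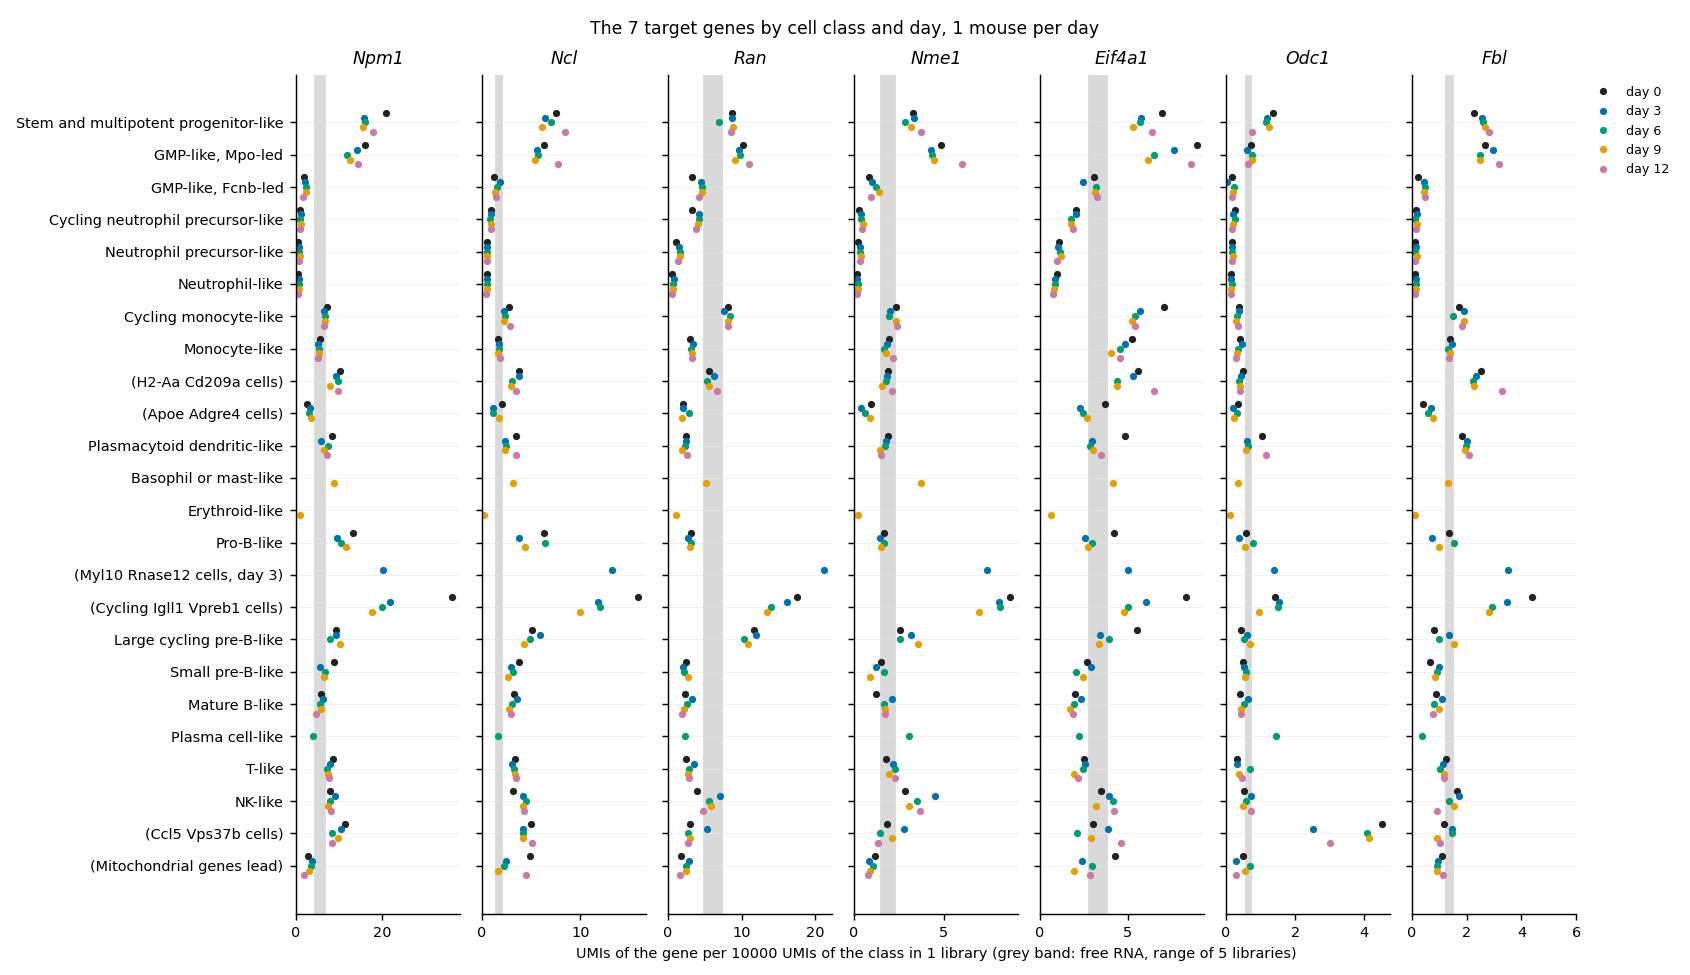
UMIs of each of the 7 target genes per 10000 UMIs in each cell class, with 1 point per day (1 mouse each). The grey bands are the range of free RNA in the 5 libraries. Levels can be compared between classes within a panel, not between genes.

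Max, the partner of Myc, was highest at the mature end of the neutrophil series. It was 0.379 to 0.683 in Mpo-led and 0.412 to 0.647 in Fcnb-led GMP-like cells, so its ranges overlapped where Myc fell. It was 0.520 to 0.773 in cycling precursors, 0.699 to 0.927 in later precursors and 1.58, 1.84, 1.92, 1.93 and 1.60 in neutrophil-like cells. Mxd1, an antagonist of Myc, was higher at each step, from 0.172 to 0.288 in Mpo-led GMP-like cells through 0.361 to 0.609 in the Fcnb-led group, 0.701 to 0.860 in cycling precursors and 0.939 to 1.06 in later precursors. It reached 3.94, 3.41, 3.68, 3.26 and 3.26 in neutrophil-like cells, with no overlap between these 5 steps. For both genes the values before the neutrophil-like end lay below free RNA, which was 1.01 to 1.39 for Max and 1.14 to 1.83 for Mxd1.

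In the B lineage the antagonists changed places between the 2 pre-B stages. Mxd3 was 1.04, 1.03, 0.836 and 0.708 in large cycling pre-B-like cells at days 0, 3, 6 and 9 and 0.0493, 0, 0.0531 and 0.0422 in small pre-B-like cells. Mxd4 was 0.754, 0.401, 0.387 and 0.536 in the large cells and 1.97, 1.89, 2.15 and 2.15 in the small cells.

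The 2 relatives of Myc were rarer. Mycn was 0.0517, 0.171, 0.168, 0.105 and 0.0219 in stem and multipotent progenitor-like cells (45 UMIs) and 0.178 in the Myl10 Rnase12 cells of day 3 (46 UMIs). Mycl was 0.344, 0.396, 0.562, 0.424 and 0.543 in plasmacytoid dendritic-like cells (162 UMIs), where Myc was 0 to 0.0291.

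Large cycling were compared with small pre-B-like cells to see how the 8 genes differ between dividing and resting cells of this stage. Ran and Mxd3 fell and Mxd4 rose from the large to the small cells, while the other 6 targets changed less than 2-fold in at least 1 library. The 4 libraries of days 0, 3, 6 and 9 were used, since day 12 had fewer than 20 cells of each class. Ratios are log2 of large over small with 0.5 UMIs added, for genes with at least 100 summed UMIs. A gene was called when it differed at least 2-fold the same way in each library, and no test was run.

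Of 3205 genes, 266 were called higher in the large cells (8.3% of genes) and 111 lower (3.46%). The median log2 ratio of all genes was −0.02. Ran was called higher, with 2.27, 2.52, 2.22 and 1.98 and a median of 2.24, or 4.74-fold. Its level in the small cells lay below free RNA in 4 of 4 libraries, so the size of this ratio is uncertain. Nme1 was not called, with 0.77, 1.35, 0.61 and 1.98. The medians of the other targets were 0.68 for Eif4a1, 0.67 for Ncl, 0.45 for Npm1, 0.37 for Fbl and −0.02 for Odc1. Of the 7 targets 1 was called, and their median was 0.67, above that of all genes. Myc had fewer than 100 UMIs and was not compared.

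The network genes split. Mxd3 was called higher, but from 144 UMIs in the large and 4 in the small cells, so its size is uncertain. Its ratio was 3.84 at day 0 (95% interval 1.77 to 9.76), 3.67 at day 6 (2.06 to 7.06) and 3.503 at day 9 (1.501 to 9.41). At day 3 the small cells had 0 UMIs, and the ratio was at least 2.19 against a floor of 3 counts. Mxd4 was called lower with a median of −2.10 (range of the 4 libraries −2.45 to −1.36), and Max was not called (−0.55). Cycling genes were higher in the large cells in 17 of 17 cases, with a median of 3.94, or 3.69 with counts of 0 set to that floor, but some of them had named the class.

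Of the 35 ribosome assembly genes 11 had enough UMIs, and they went both ways, with 2 called higher and 0 lower. Their median was 0.03, and 0.44 without day 9. The 3 with the highest ratios were Pa2g4 (1.63), Nop58 (1.31) and Gar1 (1.06), and the 3 with the lowest were Ddx18 (−1.08), Ddx21 (−0.68) and Imp4 (−0.43). Of 17 translation and chaperone genes 0 were called, with a median of 0.44. The metabolic list holds mostly enzymes of nucleotides, polyamines and one-carbon units, with a few transport and glycolysis genes. Of its 8 genes with enough UMIs 3 were called higher, with a median of 1.64. Among these was Tyms, which makes thymidylate for DNA, with 207 UMIs in the large and 2 in the small cells. Immediate-early genes, which respond to handling of cells, had a median of −1.02 and 0 of 8 called, and whether they bear on the result was not tested.

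Limits of this comparison are the depth, a median of 4744.5 UMIs in large and 1627 in small cells over all libraries, and the few UMIs of most genes. When each cell was thinned to 1000 UMIs the median ratio of Nme1 fell from 1.06 to 0.14, and thinning to 500 left 38 genes called higher.

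GMP-like cells of both groups were compared with neutrophil-like cells to follow the genes from dividing progenitors to the mature end of the series. Myc and all 7 targets were lower in neutrophil-like cells in each library, and the antagonist Mxd1 and the partner Max were higher. The call of Odc1 was lost with another denominator and with thinned cells, as given below, and Myc could not be compared in thinned cells. The progenitors also had more of most other genes, so the changes are best read against the all-gene median. Ratios are log2 of GMP-like over neutrophil-like cells, called as above, in 5 libraries.

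Of 8998 genes, 3647 were called higher in GMP-like cells (40.5%) and 843 lower (9.37%). The median log2 ratio of all genes was 0.95. Myc was 0.154, 0.296, 0.308, 0.315 and 0.205 in GMP-like cells, and its ratios were 4.83, 4.97, 4.86, 4.62 and 5.38. The median was 4.86, but the neutrophil side rests on 2, 6, 7, 10 and 4 UMIs and lies below free RNA, so the size of the ratio is uncertain. The widest 95% interval was that of day 0, 3.20 to 8.22. The 7 targets were all called higher, Nme1 by 19.2-fold, Npm1 by 18.2-fold, Fbl by 17.7-fold, Ran by 11.3-fold, Ncl by 9.26-fold, Eif4a1 by 7.0-fold and Odc1 by 3.16-fold (medians).

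The growth lists moved with the targets. Ribosome assembly genes were called higher in 34 of 35 cases with a median of 3.77, led by Nop58 (5.34), Ddx18 (5.12) and Pa2g4 (4.99), and the exception was Polr1a (−0.66). Translation and chaperone genes were higher in 19 of 20 cases (median 2.96), the exception being Eif4ebp1 (−0.53), an inhibitor of translation. Genes of the metabolic list were called higher in 17 of 19 cases (4.17), with the glycolytic genes Ldha (0.19) and Hk2 (0.06) as the exceptions. Cycling genes were higher in 17 of 17 cases (3.72).

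Among network genes, Mxd3 was called higher (2.97), and Max (−1.64), Mxd1 (−3.56) and Bcl6 (−3.01) were called lower. Mxi1 was not called (−1.07). With the Mpo-led cells alone, a choice made after seeing the data, Mxd3 fell to 1.67 and Mxi1 was called lower (−1.19). Mxd4 was level at 0.00. It was 0.32 with the Mpo-led cells alone (range of the libraries 0.05 to 0.49, not called) and −0.80 with another denominator, described next. Immediate-early genes were called lower in GMP-like cells in 5 of 10 cases, with a median of −1.44, and whether they bear on the result was not tested.

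The 50 most abundant genes over all cells held 61.3% to 64.8% of the UMIs of neutrophil-like cells and 32.5% to 38.3% of those of GMP-like cells, by library. With these genes left out of the denominator the all-gene median fell from 0.95 to 0.15, Myc to 4.11, Npm1 to 3.35 and Odc1 to 0.89, and Odc1 was no longer called. With cells thinned to 500 or 1000 UMIs Odc1 was not called either, and Myc had too few UMIs to compare.

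**Figure D3:**
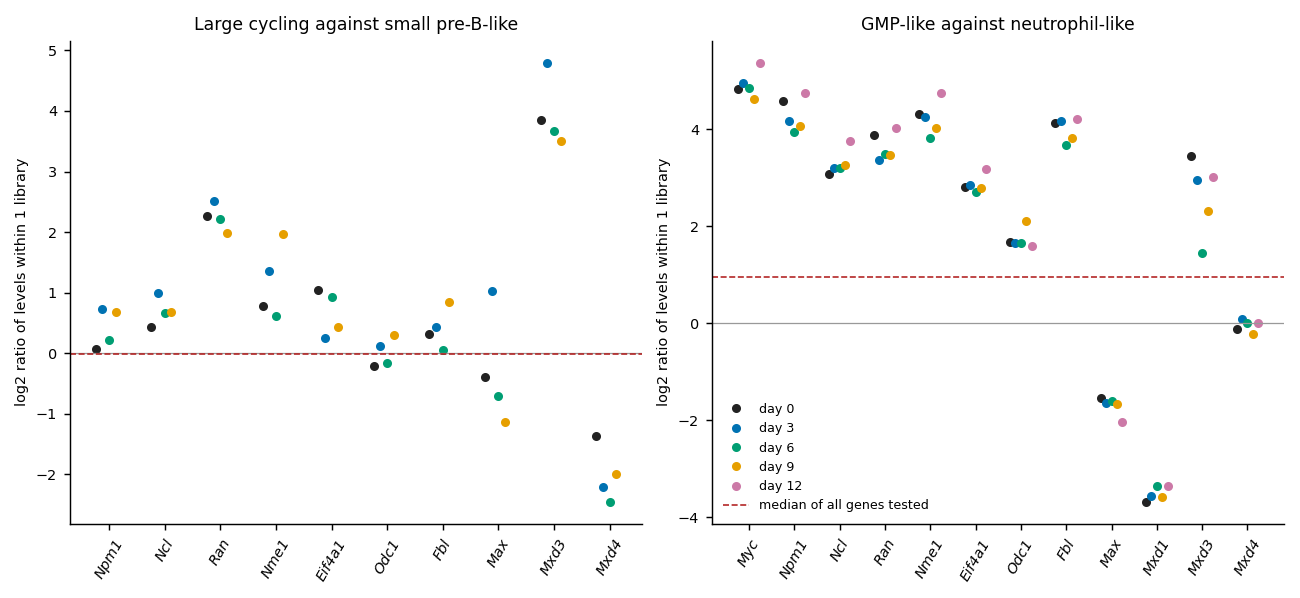
Log2 ratios of the 8 genes and the MYC network genes between large cycling and small pre-B-like cells and between GMP-like and neutrophil-like cells, by library. Genes with fewer than 100 summed UMIs are absent. Mxd4 in the comparison of GMP-like with neutrophil-like cells changes from 0.00 to −0.80 when the 50 most abundant genes leave the denominator. Mxd3 in the small pre-B-like cells rests on 4 UMIs and on 0 at day 3, and Myc in neutrophil-like cells on 29.

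Each later day was compared with day 0 within a class to see whether the 8 genes move while leukemia develops. Few of their ratios were called. Myc was called higher at days 6 and 9 in Mpo-led GMP-like cells. The targets called most often were Nme1, higher in 5 classes, 3 of them early in the neutrophil series, and Eif4a1, lower in 3 classes. Some calls of both genes were lost in other settings. Odc1 fell in plasmacytoid dendritic-like cells at days 3, 6 and 9, and day 12 had too few UMIs for a call. All comparisons share the day 0 library, so its own deviations enter each of them, and day and mouse cannot be told apart. A ratio was called at 1.5-fold, the fold used in the study.

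Over 57 comparisons in 15 classes, 10645 of 147702 ratios were called higher (7.21%) and 6675 lower (4.52%). Of 353 ratios of the 8 genes, 17 were called higher (4.82%) and 14 lower (3.97%), shares below those of all genes. Nme1 was called higher in 9 of 51 comparisons, with a median of 0.28, and lower in 0. Eif4a1 was called lower in 7 of 56, with a median of −0.22, and higher in 0. In free RNA Eif4a1 was also lower at each later day, at 3.80, 3.38, 3.03, 2.77 and 3.16 from day 0 to day 12. Whether this bears on the calls was not tested. Npm1 was called in 1 of 57, the lower level of small pre-B-like cells at day 3 (−0.66).

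Myc rose above day 0 in Mpo-led GMP-like cells, by 0.95 at day 6 (95% interval 0.37 to 1.54) and 0.83 at day 9 (0.32 to 1.38), both called. The day 0 base of these ratios was a level of 0.229 from 44 UMIs, with free RNA of that day at 0.131 (0.0969 to 0.172). The ratio of Myc was 0.78 at day 3 (0.19 to 1.39), with 99 UMIs and therefore no call, and 0.46 at day 12 (−0.13 to 1.06). In stem and multipotent progenitor-like cells it was 0.53, 0.25, 0.34 and 0.20. Days 3 and 9 had enough UMIs and 0 of these 2 were called. In T-like cells it was −0.55, −0.92, −0.88 and −0.96, from fewer than 100 UMIs and so without a call. The intervals were −1.45 to 0.21 at day 3, −1.68 to −0.23 at day 6, −1.63 to −0.21 at day 9 and −2.08 to −0.07 at day 12, and whether T-like and GMP-like cells differ was not tested.

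At the days when Myc was called higher in Mpo-led GMP-like cells the targets did not rise as a sum, which was 49.7 at day 0 and 41.4 and 41.0 at days 6 and 9. At day 12 the sum was 51.5, with Nme1 up by 0.31, Ncl by 0.30 and Fbl by 0.26, below the fold for a call. Immediate-early genes fell in the same cells by 1.23, 1.69, 1.30 and 0.42 (log2 of the summed level at days 3, 6, 9 and 12), and whether this bears on Myc, itself an early-response gene, was not tested. Over all classes immediate-early genes were called lower in 359 of 482 ratios (74.5%). By day these were 111 of 120 at day 3, 107 of 128 at day 6, 108 of 125 at day 9 and 33 of 109 at day 12, so day 12 was closer to day 0 than the days between.

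In the neutrophil series Nme1 rose by 0.61, 0.84 and 0.69 in cycling precursors at days 6, 9 and 12, where the all-gene medians were 0.29, 0.26 and 0.09. It rose by 0.59 and 0.78 in later precursors at days 3 and 9 (all-gene medians 0.14 and 0.23) and by 0.61 and 0.77 in Fcnb-led GMP-like cells at days 6 and 9 (0.17 and 0.21). Below the fold for a call were 0.55 in cycling precursors at day 3 and 0.57 and 0.58 in later precursors at days 6 and 12. The same holds for 0.31 and 0.23 in Fcnb-led cells at days 3 and 12. Many other genes rose in the comparisons with a call too. The share of all genes called higher was 21.6%, 22.5% and 5.05% in the cycling precursors, 6.90% and 15.8% in the later precursors, and 14.0% and 17.2% in the Fcnb-led cells. Cycling genes rose in the later precursors as well, with 2 of 14 called higher at day 3 and 10 of 15 at day 9, and whether this bears on Nme1 was not tested. At the end of the series, in neutrophil-like cells, Nme1 was called at 0 of 4 days (0.13, 0.54, 0.48 and −0.12). In these cells and in cycling and later precursors Nme1 lay below free RNA in 5 of 5 libraries, and in Fcnb-led cells in 3 of 5. It was also higher at day 3 in NK-like (0.68) and mature B-like cells (0.77).

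In plasmacytoid dendritic-like cells Odc1 fell by 0.78, 0.70 and 0.85 at days 3, 6 and 9, and Eif4a1 fell by 0.71, 0.77 and 0.68. At day 12, with 29 such cells, Odc1 was 0.18 (−0.79 to 0.999, 15 UMIs at that day, no call) and Eif4a1 was −0.45 (not called). Immediate-early genes fell there too, by 1.56, 1.46 and 1.43, and whether they bear on the result was not tested. Eif4a1 was also lower at days 3 and 9 in large cycling pre-B-like (−0.68 and −0.73) and pro-B-like cells (−0.70 and −0.62).

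The remaining calls were scattered over genes and classes. Ran was higher at day 3 in NK-like (0.83) and neutrophil-like cells (0.67). Free RNA also held more Ran at day 3 (7.41) than at day 0 (4.93), and whether this bears on these calls was not tested. Ran lay above free RNA in 0 of 5 libraries in NK-like cells and below it in 5 of 5 in neutrophil-like cells. Fbl was higher in neutrophil-like cells at day 6 (0.59) and in later precursors at day 9 (0.86), and lay below free RNA in 5 of 5 libraries in both. Over the settings tried the day 6 ratio ran from 0.39 to 0.62, at its smallest short of the fold for a call. Ncl was higher in Fcnb-led GMP-like cells at day 3 (0.66) and lower that day in plasmacytoid dendritic-like (−0.59) and pro-B-like cells (−0.74, but −0.02 in finer clusters). Odc1 was higher in T-like cells at day 6 (1.06) and lower in cycling neutrophil precursor-like cells at day 12 (−0.62). Fbl in Fcnb-led GMP-like cells was above day 0 at each later day, by 1.10, 1.20, 1.14 and 1.20 with each 95% interval above 0, but had fewer than 100 UMIs in each comparison and so no call. Fbl lay below free RNA in these cells in 5 of 5 libraries.

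As a list the 7 targets were called higher in 4.31% and lower in 4.02% of 348 ratios. Ribosome assembly genes were higher in 28 and lower in 19 of 419, translation and chaperone genes in 35 and 23 of 670, and genes of the metabolic list in 13 and 6 of 291. Network genes were higher in 15 and lower in 16 of 207. Cycling genes were higher in 100 of 483 (20.7%), more than the 7.21% of all genes. Of the neutrophil-like cells, 1 cluster had 1267 of its 1763 cells (71.9%) from day 12, so the make-up of that class changed with the day.

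**Figure D4:**
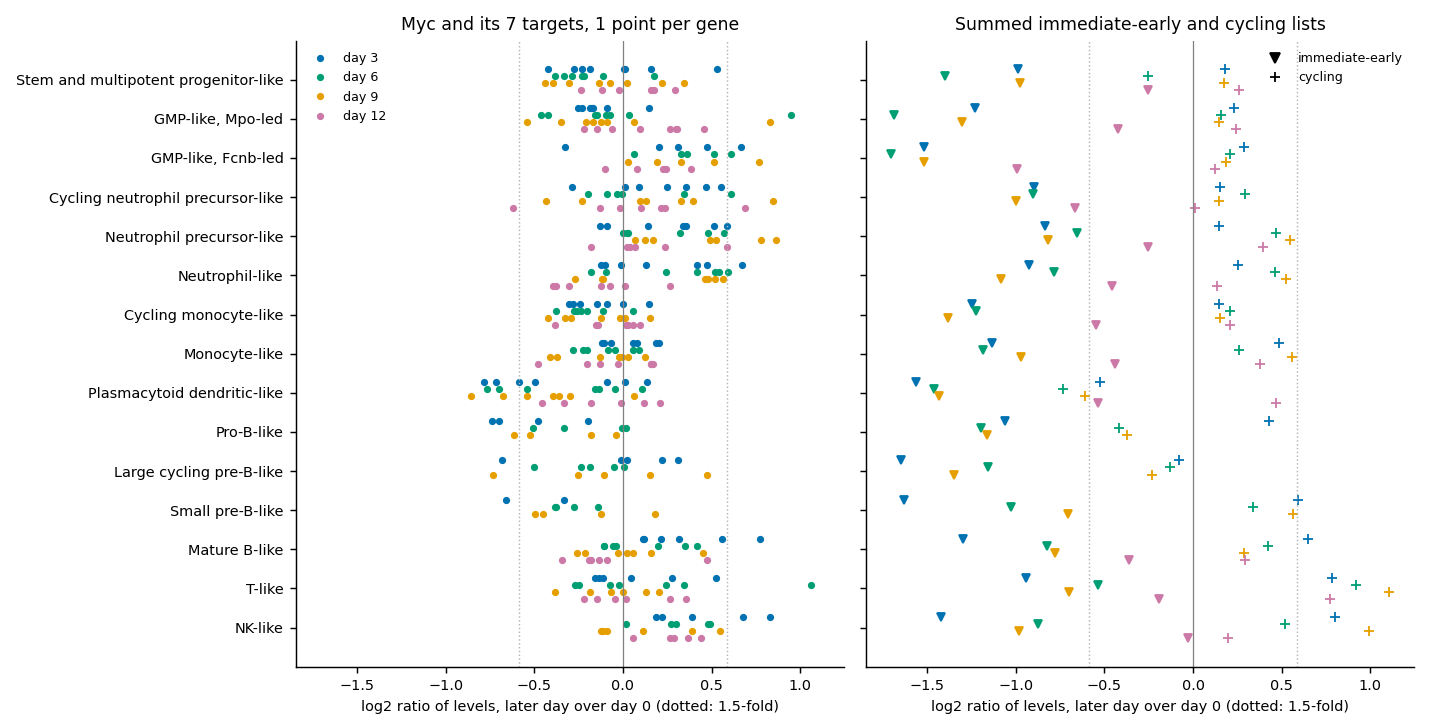
Log2 ratio of each later day to day 0 within a class. Each ratio compares 1 mouse with the same day 0 mouse.

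Myc and its targets were related but not in step across the 99 pairs of class and library, which span 24 sets. The Pearson r of Myc with the mean of the 7 targets was 0.64, on log2 of the level plus 0.1. By day it was 0.68, 0.63, 0.70, 0.65 and 0.56 over 20, 21, 21, 22 and 15 sets. The points of a day share a library and its depth, and a class recurs in up to 5 libraries, so these values describe the data and carry no test. A further limit is that Myc lay above free RNA in only 14 of the 99 pairs.

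Among 9179 genes with at least 500 UMIs, those most alike to Myc were Tspan4 (0.84), Abhd14a (0.82), Srm (0.81), Smyd2 (0.79) and Macrod1 (0.78). Srm, which makes the polyamine spermidine, is also in the metabolic list. Of the 7 targets Ncl (0.66) and Nme1 (0.66) were closest to Myc and Odc1 (0.46) was farthest. Of 9178 genes ranked by r with Myc, Ncl was at 75, Nme1 at 89, Npm1 at 162 and Fbl at 230. Ran was at 546, Eif4a1 at 714 and Odc1 at 956. The genes most alike to the target mean were Npm1 (0.97), Rps2 (0.96), Nme1 (0.96), Set (0.96) and Serbp1 (0.95), where Npm1 and Nme1 are part of the mean. Mxd1 ran against the target mean (−0.70).

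**Figure D5:**
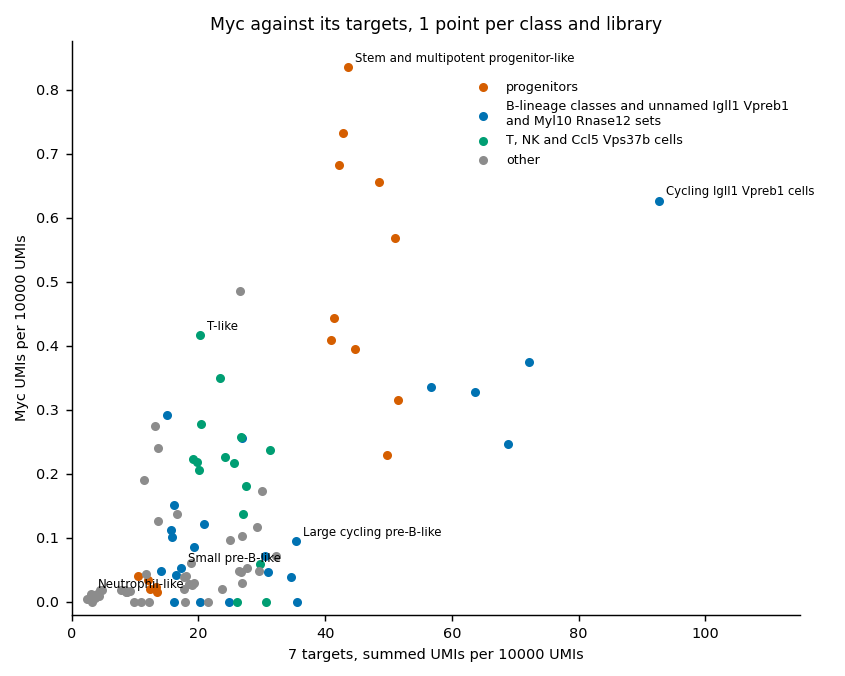
Myc level against the summed level of the 7 targets, with 1 point for each class and library with at least 20 cells. Large cycling pre-B-like cells lie at a higher target sum than T-like cells and have less Myc.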

How the data were processed

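The deposited matrices hold raw UMI counts, which the authors obtained from Cell Ranger on mm10. The genes, lists and classes were chosen with earlier results of these data known. Barcodes with at least 500 UMIs were clustered (Leiden, resolution 1) with the 8 genes and the lists left out, and clusters were named by marker lists under a rule settled after they were seen. Class ratios needed 100 summed UMIs and 2-fold in each library, day ratios 1.5-fold; neither was tested. Genes named are the 8, the MYC network genes, up to 3 highest and 3 lowest of each list, and the 5 most alike to Myc and to the target mean. Leading genes name sets. Annotation was GENCODE M21. Tools were Python 3.11.15, numpy 2.4.6, scipy 1.17.1, pandas 2.3.3, scikit-learn 1.9.0, igraph 0.11.9, leidenalg 0.10.2, scanpy 1.11.5 and matplotlib 3.10.9. Alternatives covered depth, denominator, mitochondrial share, doublets, clustering, filters and libraries.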

Additional observations from a re-analysis of the deposited data

Results flagged for a closer look

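Myc in the 2007 cells led by mitochondrial genes was 0.185 per 10000 UMIs (95% interval 0.133 to 0.251, 41 UMIs). It was above free RNA in 0 of 5 libraries at full depth. These cells enter the 99 pairs of class and library, but no comparison between classes or days. Ncl at day 3 against day 0 was higher in Fcnb-led GMP-like cells (0.66) and lower in pro-B-like cells (−0.74, but −0.02 in finer clusters), and the difference was not tested. Odc1 at day 6 against day 0 was higher in T-like cells (1.06) and lower in plasmacytoid dendritic-like cells (−0.70), and the difference was not tested.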

How the results depend on the processing

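Of 1045 values recomputed under 18 settings for 89 results, 908 kept their direction and size, 137 moved and 0 reversed. With cells thinned to 500 UMIs, 3 in place of 14 pairs had Myc above free RNA, 29 in place of 46 had the target sum above it, Myc in stem and multipotent progenitor-like cells was 0.587 in place of 0.723, 38 in place of 266 genes were called higher in large pre-B-like cells and 636 in place of 3647 in GMP-like cells, the ribosome assembly median in GMP-like cells was 3.29 in place of 3.77, and 7.23% in place of 4.82% of the ratios of the 8 genes by day were higher. Thinned to 1000 UMIs, the values were 7 pairs, 0.880, 68 genes, 1077 genes and 3.08, and 6.49% in place of 3.97% of ratios by day were lower; fewer UMIs were left to count. Without the 50 most abundant genes, Myc was 0.976, 2337 genes were higher in GMP-like cells and the ribosome assembly median was 2.97. With genes of at least 20 UMIs, 471 were higher in large pre-B-like cells. With finer clusters the ribosome assembly median was 4.10 and 2.59% of ratios by day were lower. With settings chosen after seeing the data, that median was 4.14 in Mpo-led GMP-like cells alone, and 2.28% of ratios were higher with day 3 as base; leaving out the 5% highest doublet scores moved 0 of 67 values. Leaving out 1 library in turn gave 210 to 266 genes higher in large pre-B-like cells with a ribosome assembly median of 0.0316 to 0.44, and 3377 to 3569 in GMP-like cells with 3.71 to 3.87. Leaving out each later day, also chosen after seeing the data, gave 4.18% to 5.78% higher and 2.66% to 4.69% lower. The share of all genes called by day moved with the settings too, from 3.24% to 14.1% higher and from 3.49% to 9.26% lower. Except where the fewer UMIs or genes account for it, the cause was not tested. With 1 mouse per day, no result separates day from mouse.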

Other observations

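Of 4 clusters of mature B-like cells, 1 with Crem and Ccr7 among its leading genes had a Myc level of 0.328 (95% interval 0.205 to 0.496, 22 UMIs), against 0.0714, 0.122 and 0.0651 in the others. It was chosen after its values were seen.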
